A study of Sus scrofa with 8 samples.

Results

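The adipocyte and lipid storage genes examined here are 34 genes of fat cell differentiation, triglyceride synthesis, lipid droplets and lipolysis. They were chosen by symbol, and each of the 34 symbols matched 1 row of the deposited table of 30550 genes. RNA was sequenced from the right ventricle of pigs (Sus scrofa) heterozygous for a knockout of PKP2 (PKP2_het, 4 libraries) and of wild-type pigs (WT, 4 libraries). PKP2 encodes plakophilin 2, a plaque protein of the desmosomes that join cardiac muscle cells to each other. The title of the series calls the heterozygous pigs a model of arrhythmogenic cardiomyopathy. The sources used here do not give the breed, age, sex or litter, the way the allele was made or whether each library is a separate animal, and p-values therefore cover no more than the variation among these libraries, which may be technical. In the labels the cell type reads cardiomyocytes, but the material extracted was tissue. Of the cell type marker lists used, that of cardiomyocytes had the highest summed level (MYH7 at 1965 to 4739 FPKM). Endothelial (PECAM1 at 55.4 to 141 FPKM) and fibroblast genes (DCN at 88.7 to 256 FPKM) were present too. FPKM is a gene's fragments scaled by its length and by a library factor, so levels can be compared between genes.

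Replacement of heart muscle by fat and fibrous tissue, mainly in the right ventricle, is a known feature of arrhythmogenic cardiomyopathy, which is why fat cell genes are of interest in this tissue. A fat cell forms under the transcription factors PPARG and CEBPA, makes triglyceride from glycerol 3-phosphate and fatty acids, and keeps it in a droplet coated by perilipin 1 (PLIN1). Heart muscle cells also hold small droplets, coated by other perilipins and emptied by the lipase ATGL (PNPLA2) with its activator CGI-58 (ABHD5) and its inhibitor G0S2. Genes such as ADIPOQ, PLIN1 and LEP are close to fat cell specific, while most of the 34 are shared with muscle, endothelium or many cells.

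The libraries held 23637697 to 31313628 fragments in genes. PKP2 was at 45.4, 40.7, 24.6 and 45.9 FPKM in PKP2_het replicates 1 to 4 and at 52.9, 62.2, 61.1 and 72.8 FPKM in WT replicates 1 to 4. The groups did not overlap (log2 fold change -0.69, limma adjusted p = 0.164, two-sided exact permutation p = 0.0286, the smallest that 70 relabellings allow). PKP2_het replicate 3 stood apart from the other libraries over all tested genes. Its score on the leading principal component (41.6% of the variance) was 47.8, while the others scored -16.5 to 3.74, and 52.1% of its fragments were mitochondrial, against 21.1% to 37.6%. Results are also given without it for the genes and counts described below where it moved them most.

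None of the 34 genes was called different between the groups. Of the 34, 30 reached 1 FPKM in 4 or more of the 8 libraries and entered the test, a limma fit of log2(FPKM + 1) over 10757 genes, and 0 of these 30 passed a Benjamini-Hochberg adjusted p threshold of 0.05. Across all tested genes 1.86% passed, 1.15% higher and 0.707% lower in PKP2_het. At an unadjusted limma p under 0.05 there were 6 of 30 genes (20%), against 12.8% of all tested genes. These 6 were G0S2, CFD, DGAT2, BSCL2 and GPAM, with positive log2 fold changes (PKP2_het minus WT), and AQP7, with a negative one. The groups did not overlap for 2 of the 30, BSCL2 and GPAM, both higher in PKP2_het. GPAM entered the test through all 4 PKP2_het libraries and 1 WT library, and SCD, whose groups do not overlap in the other direction, was below the filter, so the filter bears on these counts and directions. In the fit without a filter 7 of the 34 had an unadjusted p under 0.05, as did 2589 of 22206 genes. The 2 of 30 are 6.67%, against 9.19% of all tested genes (4.86% higher and 4.33% lower). The other 4 genes, CEBPA, LEP, PLIN1 and SCD, were below the filter and are described by their levels. The log2 fold changes of the 30 were spread around 0, with 16 positive and 14 negative and a median of 0.026, beside 45.7% positive and a median of -0.022 over all tested genes. With libraries rescaled to equal sums, under which the all-gene median was -0.23, 8 of the 30 were positive and 22 negative.

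**Figure D1:**
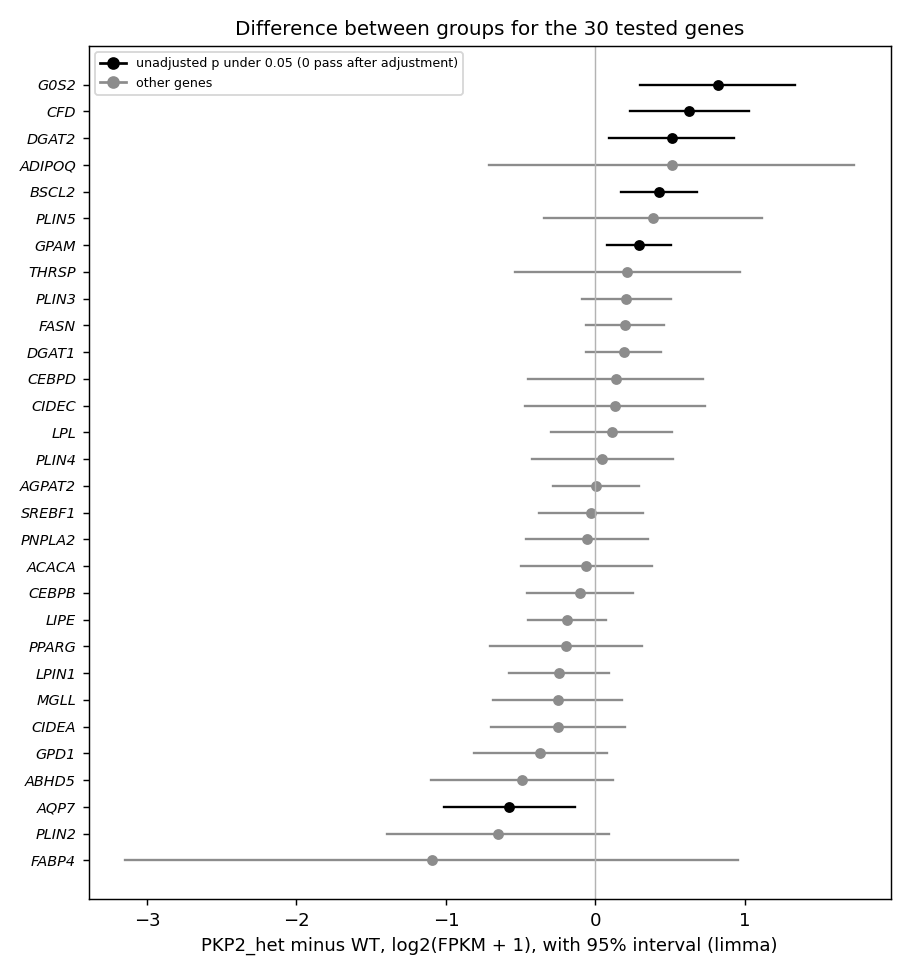
Difference between PKP2_het and WT (4 libraries each) in log2(FPKM + 1) for the 30 tested genes, with 95% limma intervals; black marks an unadjusted p under 0.05. The estimates run from -1.095 for FABP4 to 0.82 for G0S2, and the widest intervals belong to FABP4 and ADIPOQ.

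The most abundant of the 34 were 3 lipases, LPL, PNPLA2 and MGLL, and the fat cell markers CFD and FABP4, which other cells also make. Averaged over the 8 libraries, LPL stood at 169.6 FPKM, CFD at 134, PNPLA2 at 78.7, FABP4 at 74.2 and MGLL at 73.8 FPKM, and 12 of the 34 genes had a mean above 10 FPKM. At the other end CEBPA, SCD, PLIN1 and LEP had means under 1 FPKM. PLIN1 and LEP, markers close to fat cell specific, were thus among the lowest of the set.

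**Figure D2:**
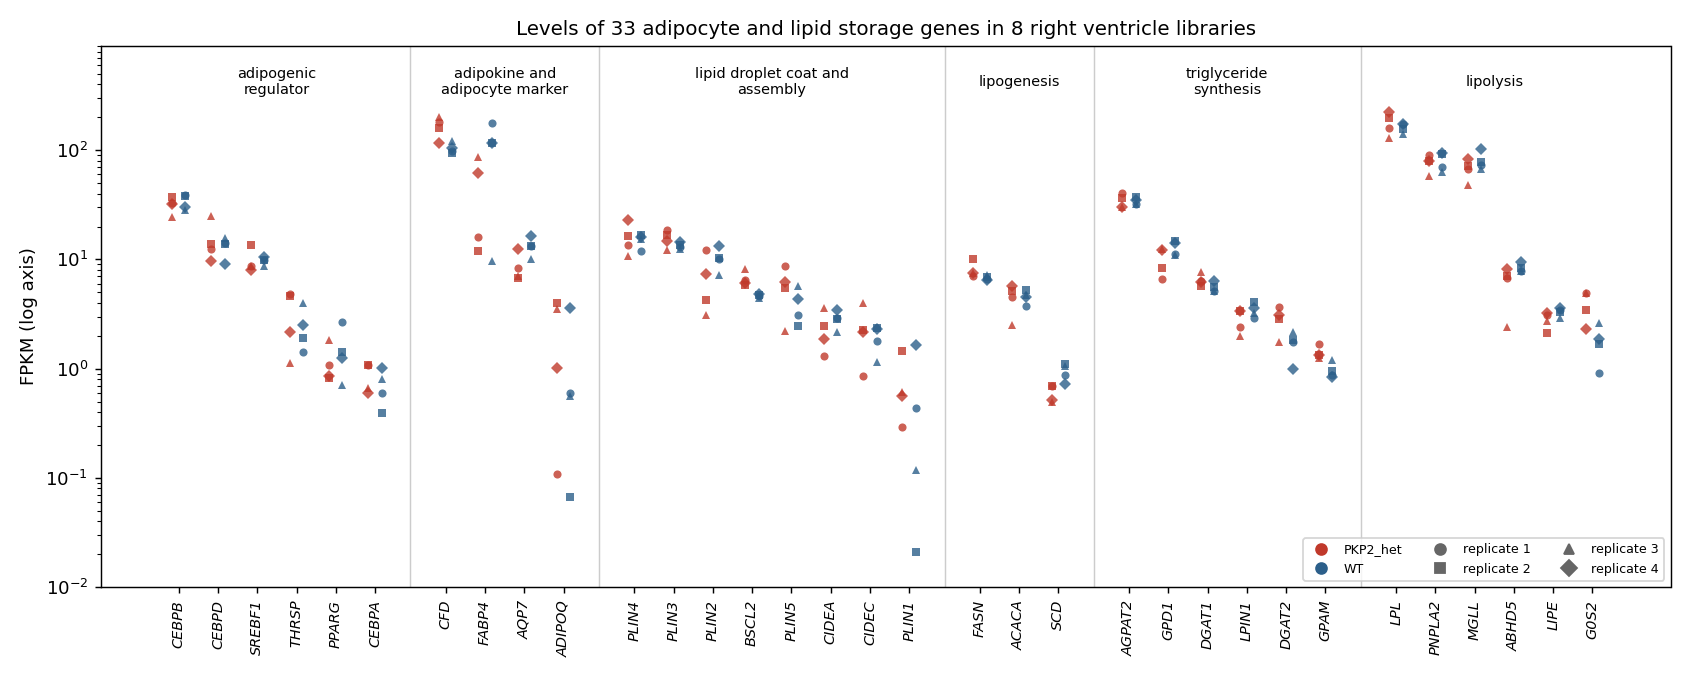
FPKM on a log axis of 33 genes in the 8 libraries, grouped by role, with 1 point per library, colour for the group and shape for the replicate; LEP, at 0 in 7 libraries, is left out. ADIPOQ, PLIN1 and FABP4 are spread far more widely within each group than most others.

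The fat cell markers ADIPOQ, PLIN1, LEP and CIDEC were low, and ADIPOQ and PLIN1 had high libraries in both groups, whereas CFD and FABP4, described further on, were far more abundant. ADIPOQ, which encodes the fat cell hormone adiponectin, was at 0.108, 4.03, 3.49 and 1.01 FPKM in PKP2_het replicates 1 to 4 and at 0.605, 0.0665, 0.565 and 3.56 FPKM in WT replicates 1 to 4. These levels rest on 3, 117, 82 and 27 fragments and on 13, 2, 18 and 105 fragments. PKP2_het replicates 2 and 3 and WT replicate 4 were high, and each group also had a library with almost no ADIPOQ. The ratio of means was 1.80, and the log2 fold change 0.51 with a 95% interval from -0.71 to 1.73 (limma adjusted p = 0.726). With a pseudocount of 0.1 the log2 fold change was 0.89, and with voom on recovered fragments 1.01 (limma adjusted p = 0.749 and 0.767). Leaving out 1 library moved it between 0.20 (without PKP2_het replicate 2) and 0.94 (without WT replicate 4), and it was 0.24 without WT replicate 2, 0.26 without PKP2_het replicate 3 and 0.93 without PKP2_het replicate 1. ADIPOQ passed the filter through 3 PKP2_het libraries and 1 WT library.

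PLIN1, the perilipin of the fat cell droplet, followed a similar order. It was at 0.292, 1.44, 0.612 and 0.560 FPKM in PKP2_het replicates 1 to 4, and at 0.436, 0.0208, 0.118 and 1.63 FPKM in WT replicates 1 to 4. WT replicate 4 and PKP2_het replicate 2 were the highest and WT replicate 2, with 1 fragment, the lowest. The 95% exact Poisson interval of 77 fragments in WT replicate 4 was 60.8 to 96.2 and that of 6 fragments in WT replicate 3 was 2.20 to 13.1, so the libraries differed by more than counting error, which is the error these intervals cover. LEP, the gene of the fat cell hormone leptin, had 1 fragment in PKP2_het replicate 3 and 0 in the other 7 libraries. The 95% exact Poisson interval of a count of 0 reaches 3.69 fragments per library.

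CIDEC, which enlarges fat cell droplets by fusing them, was at 0.865, 2.26, 4.01 and 2.16 FPKM in PKP2_het replicates 1 to 4 and at 1.78, 2.38, 1.16 and 2.29 FPKM in WT replicates 1 to 4. Its highest and its lowest library were both PKP2_het, replicates 3 and 1. The log2 fold change was 0.13 with an interval from -0.47 to 0.73 (limma adjusted p = 0.858), and -0.095 without PKP2_het replicate 3. Summed over ADIPOQ, PLIN1, LEP and CIDEC, the level was 1.27, 7.74, 8.11 and 3.73 FPKM in PKP2_het replicates 1 to 4. In WT replicates 1 to 4 the sum was 2.83, 2.47, 1.85 and 7.48 FPKM. The ranges overlapped, and libraries within each group differed widely. Of the wider list of 12 fat cell markers, 11 were in the table and 7 passed the filter, with 0 called, 4 positive and 3 negative log2 fold changes. Its summed level, of which CFD and FABP4 made up most, was 199 to 311 FPKM in PKP2_het and 153 to 295 FPKM in WT. In tissue libraries, fewer fat cells and less RNA per fat cell cannot be told apart.

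The fat cell markers had no common order across libraries, and CFD was ordered unlike ADIPOQ and PLIN1. CFD encodes adipsin, the complement protease factor D that fat cells secrete and that macrophages and other cells can also make. It was at 182, 158, 199 and 117 FPKM in PKP2_het replicates 1 to 4 and at 97.9, 93.4, 121 and 104 FPKM in WT replicates 1 to 4. Of the PKP2_het libraries, 3 lay above every WT library, while replicate 4 lay within the WT range. The log2 fold change was 0.63 ± 0.18 (SE), with an interval from 0.23 to 1.03 and a limma adjusted p of 0.146. PKP2_het replicate 1 had nearly the highest CFD level and the lowest ADIPOQ level of its group. CFD spans 77509792 to 77511988 of chromosome 2 (build Sscrofa11.1) and overlaps MED16 on the opposite strand, which was at 4.41 ± 0.674 in PKP2_het libraries and 4.69 ± 0.580 FPKM in WT (SD, n = 4). Macrophage markers were low, with a summed level over 6 genes of 10.7 to 26.6 FPKM in PKP2_het and 18.8 to 23.5 FPKM in WT, and their part in the CFD difference was not tested.

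FABP4, a fatty acid carrier of fat cells and of capillary endothelium, had the largest within-group SD of log2(FPKM + 1) among the 30 tested genes. It was at 16.1, 11.96, 86.7 and 62.1 FPKM in PKP2_het replicates 1 to 4 and at 176, 115, 9.58 and 116 FPKM in WT replicates 1 to 4. WT replicate 3 was the lowest of the 8 libraries and WT replicate 1 the highest, an 18.4-fold range within 1 group, which was narrower in ratio than the 53.5-fold range of ADIPOQ in WT (the latter from 2 fragments in its lowest library). The log2 fold change was -1.095 ± 0.91 (SE), with an interval from -3.15 to 0.95 (limma adjusted p = 0.660). Leaving out 1 library moved it between -0.64 (without PKP2_het replicate 2) and -2.01 (without WT replicate 3). It was -1.56 without PKP2_het replicate 3 and -0.66 without WT replicate 1, with limma adjusted p-values that stayed above the threshold in each setting run. The within-group SD of FABP4 on the log2 scale lay at percentile 99.9 of the tested genes, and that of ADIPOQ at percentile 99.6.

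PPARG, the receptor that drives fat cell differentiation and is also active in capillary endothelium, was ordered across libraries like FABP4. It was at 1.08, 0.824, 1.83 and 0.855 FPKM in PKP2_het replicates 1 to 4 and at 2.69, 1.42, 0.708 and 1.26 FPKM in WT replicates 1 to 4. WT replicates 1, 2 and 4 and PKP2_het replicate 3 held the 4 highest levels of PPARG and of FABP4. The same 4 libraries were also the highest for the endothelial genes PECAM1, CLDN5 and EGFL7 and for GPIHBP1, which carries lipoprotein lipase across the capillary wall, and 3 of these 4 for VWF, CDH5, KDR and TIE1. For ADIPOQ 2 of the 4 were shared and for CFD 1. The summed level of 7 endothelial markers was 197 to 409 FPKM in PKP2_het and 234 to 470 FPKM in WT. All 7 endothelial markers had negative log2 fold changes with 0 called, and their part in the FABP4 and PPARG levels was not tested. These genes were singled out after their values were seen. The PPARG log2 fold change was -0.20 ± 0.23 (SE; limma adjusted p = 0.740), and 0.0042 without WT replicate 1.

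**Figure D3:**
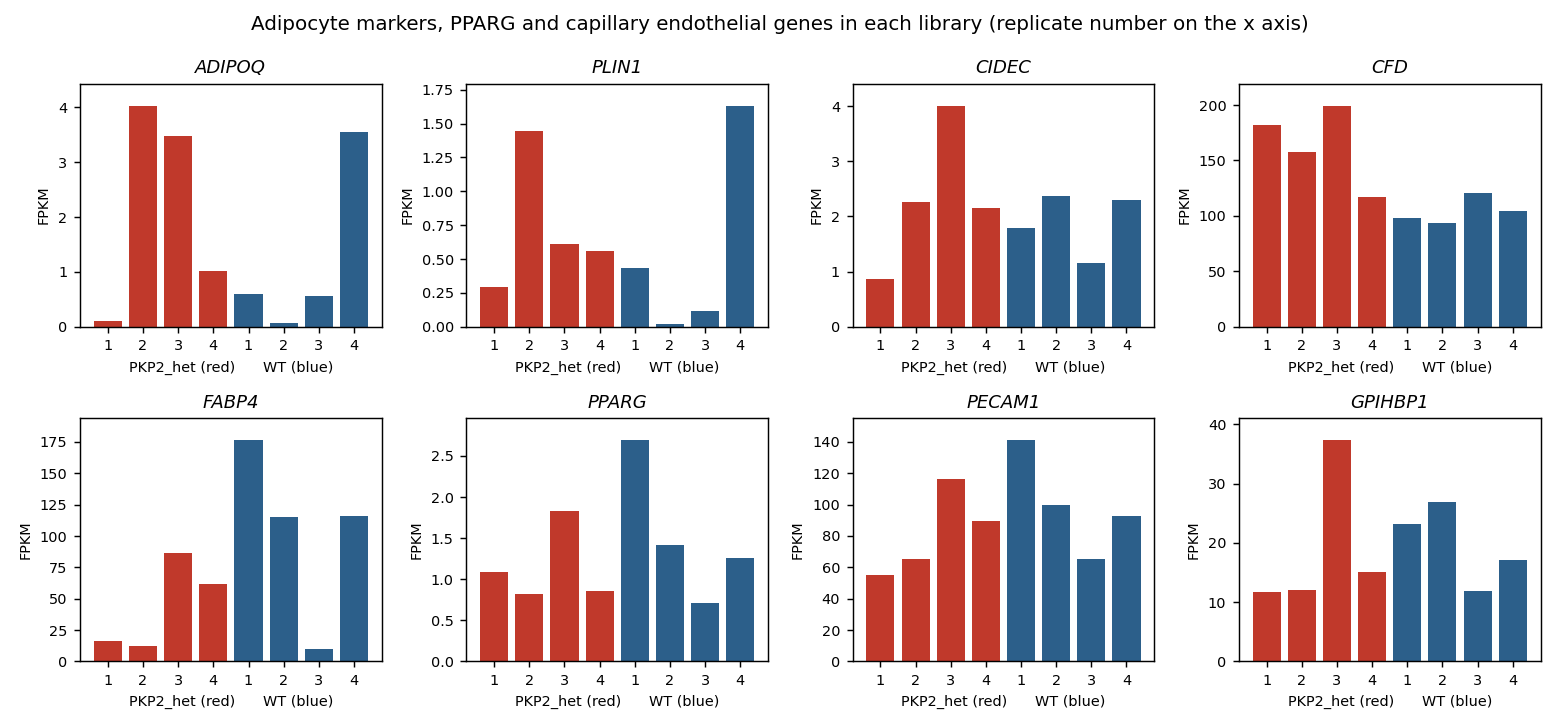
FPKM in each of the 8 libraries (bars start at 0; red PKP2_het, blue WT, replicate number below) for the fat cell markers ADIPOQ, PLIN1, CIDEC and CFD, and for FABP4, PPARG and the capillary endothelial genes PECAM1 and GPIHBP1. ADIPOQ and PLIN1 peak in PKP2_het replicate 2 and WT replicate 4, whereas FABP4 and PPARG are highest in WT replicate 1.

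AQP7, a channel through which glycerol leaves fat cells and enters heart muscle cells, was at 8.42, 6.72, 7.12 and 12.5 FPKM in PKP2_het replicates 1 to 4. In WT replicates 1 to 4 it was at 13.3, 13.4, 10.1 and 16.2 FPKM. PKP2_het replicate 4 alone reached the WT range. The log2 fold change was -0.58 ± 0.20 (SE), with an interval from -1.01 to -0.14 and a limma adjusted p of 0.232. Its Sscrofa11.1 position is chromosome 10, 33098746 to 33130245, and it overlaps NFX1 on the opposite strand, at 5.37 ± 0.519 in PKP2_het libraries and 5.61 ± 0.442 FPKM in WT (SD, n = 4).

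Among the other regulators of fat cell formation, CEBPB was the most abundant, at 33.2, 36.9, 24.3 and 32.0 FPKM in PKP2_het replicates 1 to 4 and 38.7, 38.2, 28.5 and 30.3 FPKM in WT replicates 1 to 4. CEBPB and CEBPD act early in fat cell differentiation and are also induced by stress and inflammation in many cells. The groups overlapped for both, with log2 fold changes of -0.10 for CEBPB and 0.14 for CEBPD, which became 0.014 and -0.11 without PKP2_het replicate 3. CEBPD was highest in that library, with 24.9 FPKM, while the other 7 had 9.15 to 15.6 FPKM. CEBPA, which works with PPARG in the mature fat cell, was at 0.857 ± 0.256 in PKP2_het libraries and 0.700 ± 0.266 FPKM in WT (SD, n = 4). SREBF1, the transcription factor that turns on fatty acid synthesis, was at 9.72 ± 2.57 and 9.76 ± 0.780 FPKM, and THRSP, a lipogenic nuclear protein, at 3.20 ± 1.82 and 2.46 ± 1.12 FPKM. Across the 5 tested regulators 2 log2 fold changes were positive and 3 negative.

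Of the perilipin genes, those that muscle cells share had higher transcript levels than PLIN1. PLIN4, found in fat and striated muscle, was at 13.6, 16.3, 10.7 and 23.1 FPKM in PKP2_het replicates 1 to 4 and at 11.8, 16.7, 15.2 and 16.0 FPKM in WT replicates 1 to 4. It overlaps HDGFL2 on the opposite strand, at 11.2 ± 1.38 in PKP2_het libraries and 9.98 ± 0.720 FPKM in WT. PLIN3, a widely expressed perilipin, was at 15.7 ± 2.75 in PKP2_het libraries and 13.3 ± 0.855 FPKM in WT (SD, n = 4). PLIN5, which ties droplets to mitochondria in oxidative muscle, was at 5.67 ± 2.71 and 3.89 ± 1.43 FPKM, with a log2 fold change of 0.39 that was 0.70 without PKP2_het replicate 3 and 0.17 without PKP2_het replicate 1 (limma adjusted p = 0.664, 0.172 and 0.842). PLIN2, the coat protein that accumulates with droplets in many cells, was at 12.1, 4.28, 3.12 and 7.43 FPKM in PKP2_het replicates 1 to 4 and at 10.002, 10.3, 7.24 and 13.3 FPKM in WT replicates 1 to 4. PLIN2 was thus lowest in PKP2_het replicates 2 and 3, while PKP2_het replicate 1 exceeded 3 of the WT libraries. Its log2 fold change was -0.65 with an interval from -1.39 to 0.09 (limma adjusted p = 0.455), and -0.40 without PKP2_het replicate 3. CIDEA, a droplet fusion protein of brown fat, had a log2 fold change of -0.25 (limma adjusted p = 0.645).

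Of the 7 tested droplet genes, BSCL2 was the 1 whose groups did not overlap (14.3%, against 9.19% of all tested genes). It encodes seipin, a protein of the endoplasmic reticulum at which droplets bud, and loss of seipin causes a congenital lack of body fat. BSCL2 was at 6.43, 5.79, 8.19 and 6.12 FPKM in PKP2_het replicates 1 to 4 and at 4.65, 4.72, 4.42 and 4.79 FPKM in WT replicates 1 to 4. The WT libraries lay close together, and each PKP2_het library lay above them. The ratio of the group means was 1.43, and the log2 fold change 0.43 ± 0.11 (SE), with an interval from 0.17 to 0.68 and a limma adjusted p of 0.114. Without PKP2_het replicate 3, the highest library, the log2 fold change was 0.33 and the limma adjusted p 0.0592. BSCL2 spans 9052676 to 9064890 of chromosome 2 (Sscrofa11.1), and its annotated overlaps on the opposite strand, GNG3 and LOC110259246, had means of at most 0.152 FPKM.

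Triglyceride synthesis starts with the acylation of glycerol 3-phosphate and ends with diacylglycerol acyltransferase. GPAM, the mitochondrial enzyme of the starting step, was at 1.69, 1.33, 1.26 and 1.34 FPKM in PKP2_het replicates 1 to 4 and at 0.875, 0.949, 1.196 and 0.843 FPKM in WT replicates 1 to 4. The groups did not overlap, but the lowest PKP2_het and the highest WT library were close, and the gene passed the filter through 4 PKP2_het libraries and 1 WT library. The ratio of means was 1.46, and the log2 fold change 0.29 ± 0.10 (SE) with a limma adjusted p of 0.213. GPAM spans 122538600 to 122582390 of chromosome 14 (Sscrofa11.1).

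DGAT2, an enzyme of the last step that draws on newly made fatty acids, was at 3.67, 2.85, 1.76 and 3.09 FPKM in PKP2_het replicates 1 to 4 and at 1.77, 1.82, 2.15 and 0.994 FPKM in WT replicates 1 to 4. PKP2_het replicate 3 lay within the WT range and the other 3 above it. The ratio of means was 1.69, and the log2 fold change 0.51 ± 0.19 (SE; limma adjusted p = 0.270), or 0.66 without PKP2_het replicate 3 (limma adjusted p = 0.0649). DGAT2 spans 10032163 to 10066082 of chromosome 9. DGAT1, the other enzyme of that step, was at 6.50 ± 0.83 in PKP2_het libraries and 5.56 ± 0.570 FPKM in WT (SD, n = 4), with a limma adjusted p of 0.536. DGAT1 shares part of its locus with HSF1 on the opposite strand, which was at 23.2 ± 1.47 and 23.4 ± 2.05 FPKM.

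The remaining triglyceride synthesis genes, AGPAT2, LPIN1 and GPD1, had overlapping groups. AGPAT2, which adds the next acyl chain and whose loss also causes a congenital lack of fat, was the most abundant of the pathway, at 40.8, 36.7, 30.2 and 30.2 FPKM in PKP2_het replicates 1 to 4 and 32.0, 37.1, 32.3 and 35.0 FPKM in WT replicates 1 to 4. Its log2 fold change was 0.0059, with an interval from -0.28 to 0.29. LPIN1, the phosphatidate phosphatase lipin 1, had a log2 fold change of -0.24, and GPD1, which makes glycerol 3-phosphate, one of -0.37 (limma adjusted p = 0.550 and 0.490). GPD1 was lowest in PKP2_het replicates 1 and 2, at 6.57 and 8.35 FPKM, against 10.9 to 14.7 FPKM in WT. GPD1 overlaps LOC102163508 on the opposite strand, at 7.96 ± 1.77 in PKP2_het libraries and 6.84 ± 1.73 FPKM in WT. In fatty acid synthesis, FASN (fatty acid synthase) was at 7.09, 10.01, 7.47 and 7.57 FPKM in PKP2_het replicates 1 to 4 and at 6.65, 6.92, 7.18 and 6.52 FPKM in WT replicates 1 to 4, and ACACA (acetyl-CoA carboxylase 1) had a log2 fold change of -0.06. SCD, the desaturase that makes oleate, was at 0.695, 0.694, 0.499 and 0.518 FPKM in PKP2_het and 0.876, 1.099, 1.05 and 0.717 FPKM in WT, in the same order of replicates. The SCD groups did not overlap, but the gene was below the filter, and in the fit without a filter its log2 fold change was -0.27 with a limma adjusted p of 0.262.

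G0S2 had the largest positive log2 fold change of the 30 tested genes. It encodes a small protein that binds and inhibits ATGL, the lipase that starts the breakdown of stored triglyceride. G0S2 was at 4.89, 3.41, 4.95 and 2.32 FPKM in PKP2_het replicates 1 to 4 and at 0.911, 1.69, 2.60 and 1.87 FPKM in WT replicates 1 to 4, which rest on 54 to 118 and on 17 to 72 fragments. PKP2_het replicate 4 lay below WT replicate 3, and the other 3 PKP2_het libraries lay above each WT library. The ratio of means was 2.20, and the log2 fold change 0.82 ± 0.23 (SE), with an interval from 0.30 to 1.34 and a limma adjusted p of 0.145. Without PKP2_het replicate 3 the log2 fold change was 0.71. G0S2 spans 133287065 to 133288066 of chromosome 9 (Sscrofa11.1).

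The lipase and its activator did not show a difference that passed the test. PNPLA2 (ATGL) was at 90.3, 79.8, 58.4 and 79.8 FPKM in PKP2_het replicates 1 to 4 and at 70.5, 93.0, 63.2 and 94.5 FPKM in WT replicates 1 to 4, with a log2 fold change of -0.05 and an interval from -0.46 to 0.35. ABHD5 (CGI-58) was at 6.76, 7.06, 2.43 and 8.15 FPKM in PKP2_het replicates 1 to 4 and at 7.91, 8.33, 7.88 and 9.39 FPKM in WT replicates 1 to 4. Its log2 fold change of -0.49 (limma adjusted p = 0.505) became -0.17 without PKP2_het replicate 3, the low library. LIPE, the hormone-sensitive lipase, was at 2.79 ± 0.482 in PKP2_het libraries and 3.30 ± 0.305 FPKM in WT (SD, n = 4). LIPE overlaps ATP5SL on the opposite strand, which was far higher, at 23.5 ± 3.50 and 24.6 ± 2.10 FPKM. MGLL, which releases the last fatty acid, was at 67.5 ± 14.5 and 80.0 ± 15.9 FPKM (SD, n = 4). LPL, the lipase that frees fatty acids from circulating lipoproteins, was at 158, 198, 129.6 and 224 FPKM in PKP2_het replicates 1 to 4 and at 175, 157, 141 and 174 FPKM in WT replicates 1 to 4. PKP2_het replicate 4 was the highest and PKP2_het replicate 3 the lowest for LPL, with a log2 fold change of 0.11 and an interval from -0.29 to 0.52.

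The library PKP2_het replicate 3 set the low end for many of these genes. With LEP left aside, it was the lowest library for 14 of 33 genes, including PLIN2, PLIN3, PLIN4, PLIN5, ABHD5, PNPLA2, MGLL and LPL, and the highest for 7, including CIDEC, CIDEA and BSCL2. No other library was lowest for more than 4. The share of all tested genes lowest in PKP2_het replicate 3 was not counted, so these counts cannot be called particular to this set. Without that library 0 of the 30 genes passed in limma. An unadjusted p under 0.05 was found for 10 (1782 of all 10757 genes), and 18 log2 fold changes were positive and 12 negative. Among values not given above, the log2 fold change went from -0.25 to -0.42 for CIDEA, from -0.25 to -0.098 for MGLL, from -0.24 to -0.13 for LPIN1, from 0.21 to 0.31 for PLIN3, from 0.21 to 0.50 for THRSP and from 0.11 to 0.25 for LPL. The sign turned for 6 genes, CEBPB, CEBPD, SREBF1, CIDEC, ACACA and PNPLA2. Within-group spread was also large for this set in general: 8 of the 30 tested genes lay above percentile 90 of all tested genes in their SD, namely FABP4, ADIPOQ, THRSP, PLIN2, PLIN5, CIDEC, ABHD5 and CEBPD. BSCL2 and GPAM were at percentiles 24.7 and 13.2. These SDs are of log2(FPKM + 1), where the pseudocount narrows the spread of low genes such as GPAM.

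**Figure D4:**
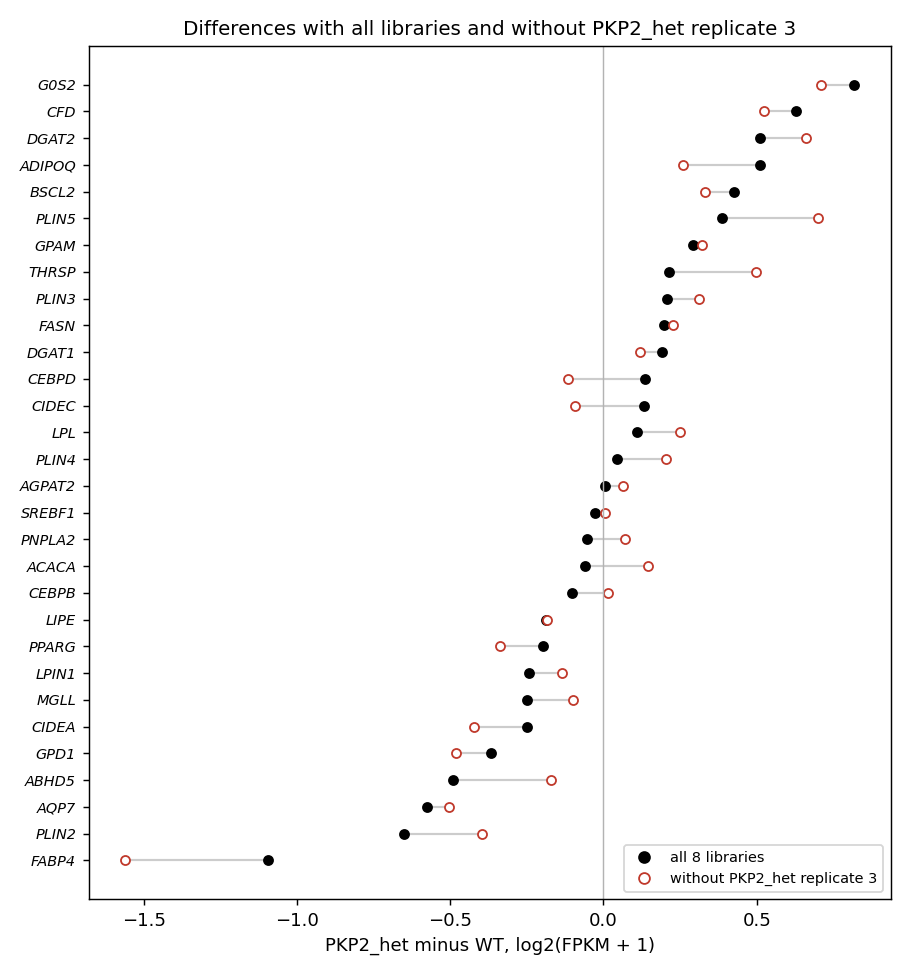
Log2 fold changes of the 30 tested genes with all 8 libraries (filled) and without PKP2_het replicate 3 (open), on the log2(FPKM + 1) scale. FABP4 moves from -1.095 to -1.56, PLIN5 from 0.39 to 0.70 and ABHD5 from -0.49 to -0.17, while G0S2, CFD, DGAT2 and BSCL2 stay positive.

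Other genes of these pathways, in 4 further lists, likewise had no call. Of 84 listed genes 82 were matched to 1 row, 65 passed the filter and 0 passed in limma, with 6 (9.23%) at an unadjusted p under 0.05, against 12.8% of all tested genes. The groups did not overlap for 4 of the 65 (6.15%), against 9.19%. Of their log2 fold changes 27 were positive and 38 negative, with a median of -0.034. Among 19 tested lipid droplet and triglyceride genes, METTL7A, a droplet-associated protein, was at 11.8 ± 2.11 in PKP2_het libraries and 8.74 ± 0.456 FPKM in WT (SD, n = 4), with a limma adjusted p of 0.222. The METTL7A groups did not overlap. Among 22 tested regulators KLF15, a glucocorticoid-induced transcription factor of fat and heart, was at 4.62 ± 1.45 and 2.73 ± 0.619 FPKM (limma adjusted p = 0.235). Among 13 tested lipogenic genes FADS2, the delta-6 desaturase, was at 5.49 ± 1.44 and 8.52 ± 1.83 FPKM, with a log2 fold change of -0.56 (limma adjusted p = 0.227).

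Of 11 tested genes that handle lipoprotein lipase and fatty acid uptake, 3 had positive and 8 negative log2 fold changes, with a median of -0.24, beside 45.7% positive over all tested genes. An unadjusted p under 0.05 was found for 3 of the 11, against 12.8% of all tested genes, and groups that did not overlap for 2, against 9.19%. The 7 endothelial markers, with a median of -0.29, were all negative too, and their part in these values was not tested. LMF1, a chaperone that lets lipoprotein lipase mature, was at 8.73, 7.73, 8.46 and 8.55 FPKM in PKP2_het replicates 1 to 4 and at 10.3, 10.6, 8.79 and 11.8 FPKM in WT replicates 1 to 4. SEL1L, its partner in lipase maturation in the endoplasmic reticulum, was at 7.39 ± 1.62 in PKP2_het libraries and 9.93 ± 0.288 FPKM in WT (SD, n = 4). The groups did not overlap for LMF1 and SEL1L, with limma adjusted p-values of 0.312 and 0.265. ANGPTL4, a secreted inhibitor of lipoprotein lipase, was at 6.65 ± 2.25 and 9.79 ± 1.27 FPKM (limma adjusted p = 0.343). CD36, the fatty acid translocase, was at 52.3 ± 6.46 and 64.1 ± 9.02 FPKM (limma adjusted p = 0.451).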

How the data were processed

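The deposited values are FPKM, made by the authors from paired reads. HISAT2 2.0.5 was the aligner, per the submitters' processing notes. The sources used here do not give the counting program, annotation, strand handling or normalisation. Without strand, reads of overlapping genes cannot be told apart. Of 30550 genes, 30335 had the same start and end in RefSeq's Sscrofa11.1 table. Dividing FPKM times gene length by the step that 1 fragment is worth in a library gave whole fragments, within 0.01, for 100% of values, and the factors in them equalled median-of-ratios factors, so levels are relative to the median gene. Groups and replicate numbers come from the sample titles.

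Genes reaching 1 FPKM in 4 or more of 8 libraries were compared as log2(FPKM + 1) with limma 3.58.1 in R 4.3.3 (variance trend, no replicate block, two-sided, Benjamini-Hochberg adjustment over 10757 genes at 0.05). The pseudocount understates fold changes of low genes; ratios of means are of FPKM. The fit was tested on simulated fragments with the same variance setting for every gene. It recovered 82.7% of 2-fold and 100% of 4-fold changes, and 7.81% of its calls were false. These shares do not carry over to genes with a wider spread than simulated. Alternatives covered pseudocounts of 0.1 and 0.5, filters, scaling, voom on recovered fragments, library weights, robust variances, a replicate block and left-out libraries.

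The 34 members and the lists were chosen with earlier results of these data known. By rule, values per library were given for genes with an unadjusted p under 0.05, fat cell markers, PPARG and the most abundant gene of each role, and up to 4 genes with the smallest p per further list were named; PLIN2, SCD, PNPLA2, ABHD5 and the endothelial genes set beside FABP4 were added after their values were seen. Of the listed genes HSD17B11, TRARG1, MSLN and ITLN1 were not matched and INSIG2 had 2 rows; these were not used. Summed levels of the marker lists not given elsewhere were, in PKP2_het and WT, 17586 to 23836 and 18726 to 20245 FPKM for cardiomyocyte, 182 to 421 and 220.1 to 269.8 for fibroblast, 256 to 411 and 272 to 409.6 for pericyte and smooth muscle, 0.662 to 1.10 and 0.573 to 1.49 for epicardial and 0.165 to 0.367 and 0.115 to 0.278 FPKM for skeletal muscle genes.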

Additional observations from a re-analysis of the deposited data

Results flagged for a closer look

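Dixon's ratio was examined in 69 groups of 4 libraries, among the 34 genes and PKP2. By its 95% critical value, 4 groups held a library far from the other 3. For normally distributed values chance alone gives about 1 in 20, and FPKM values need not be so distributed. ADIPOQ was at 3.56 FPKM in WT replicate 4, while the other WT libraries had 0.0665 to 0.605 FPKM. In PKP2_het replicate 2, SREBF1 was at 13.5 FPKM, while the other libraries of that group had 7.95 to 8.79 FPKM. FASN was at 10.01 FPKM in that library, while the others of the group had 7.09 to 7.57 FPKM. LEP was at 0.00836 FPKM in PKP2_het replicate 3, which is 1 fragment, and at 0 in the other 3 PKP2_het libraries. With those at 0 the ratio is 1.0 whatever the remaining level, so the LEP flag carries no weight.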

How the results depend on the processing

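No member passed in any of 19 alternative settings except with library quality weights. These called 3 of the 30 (CFD, BSCL2 and DGAT2, limma adjusted p = 0.0494, 0.0358 and 0.0385). Calls rose over all 10757 tested genes too in that setting, to 367 higher and 292 lower, from 124 and 76. PKP2 there had a log2 fold change of -0.57 (limma adjusted p = 0.0203). Of the 65 further lipid genes tested 1, METTL7A, passed with library quality weights. The same gene passed with both PKP2_het replicates 3 and 4 left out, a setting that called 128 higher and 56 lower over all genes. Over all genes 124 were called higher and 76 lower. The counts were 50 and 45 with equal sums and 367 and 292 with quality weights. They were 66 and 39 with the replicate block, which changed no call among the members. Deviations from the group mean correlated at -0.39, 0.033, -0.23 and 0.20 between same-numbered libraries. Of 4 PKP2_het libraries, 1 correlated best with its own number. With 4 libraries per group, these correlations cannot settle whether the replicate numbers pair the libraries. Leaving out 1 library gave 75 to 195 genes higher and 40 to 119 lower, with 195 and 119 without PKP2_het replicate 3, 77 and 42 without WT replicate 2 and 75 and 40 without WT replicate 4; the lower count alone was 44, 49 and 50 without PKP2_het replicate 1, 2 or 4. Of the 200 calls, 191 remained without PKP2_het replicate 3, 114 without WT replicate 2 and 112 without WT replicate 4.

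Of 570 member values under alternatives 41 had turned sign, in 13 genes whose log2 fold changes were at most 0.21 in size with all libraries and whose lowest limma adjusted p was 0.579 where the sign turned. With equal sums they were -0.12 for CEBPD, -0.037 for PLIN3, -0.20 for PLIN4, -0.065 for CIDEC, -0.032 for FASN, -0.25 for AGPAT2, -0.042 for DGAT1 and -0.16 for LPL. Quality weights gave 0.00071 for CEBPB, -0.042 for CEBPD, 0.12 for SREBF1, 0.082 for ACACA and -0.0022 for AGPAT2. With both PKP2_het replicates 3 and 4 left out the values were 0.056 for CEBPB, 0.14 for SREBF1, -0.21 for CIDEC, 0.078 for ACACA and 0.10 for PNPLA2. Quantile normalisation gave -0.018 for AGPAT2. Leaving out 1 library gave ranges of -0.37 to 0.0042 for PPARG, -0.18 to 0.014 for CEBPB, -0.11 to 0.31 for CEBPD, -0.18 to 0.049 for SREBF1, -0.14 to 0.21 for PLIN4 and -0.095 to 0.38 for CIDEC. The ranges were -0.17 to 0.14 for ACACA, -0.077 to 0.064 for AGPAT2, -0.16 to 0.071 for PNPLA2 and -0.011 to 0.25 for LPL. The causes were not tested. Depth limits ADIPOQ, PLIN1 and LEP most, with 0 to 117 fragments per library.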
